A study of Mus musculus with 11 samples.

Results

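The genes described here encode the subunits of Mediator. They were taken from the count table as every row whose symbol is Med followed by a number, with Med12l and Med13l, plus Ccnc, Cdk8 and Cdk19. This gave 33 genes of the 55291 rows, and all 33 had enough counts to be tested. The rule uses gene symbols and no measured value, but earlier results of these data were known when the members were chosen. By the structural assignment used here the head module has 7 members, the middle module 9, the tail module 9 and the kinase module 7. Med27, Med28, Med29 and Med30 are placed in the tail, and Med14 is the scaffold that joins the modules.

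Mediator is a large complex that carries signals from DNA-bound transcription factors to RNA polymerase II at the promoter. The head and middle modules contact the polymerase, the tail holds most of the contacts with activators, and the kinase module (a cyclin-dependent kinase with its cyclin, Med12 and Med13) binds reversibly and, while bound, keeps the polymerase from docking. In embryonic stem cells Mediator is known for its abundance at the enhancers of pluripotency genes, where it works with cohesin. The vertebrate kinase module comes in alternative forms, since Cdk8 and Cdk19, Med12 and Med12l, and Med13 and Med13l are paralogs that take the same place.

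RNA was sequenced from E14 mouse embryonic stem cells, kept without feeder cells in serum with LIF and with GSK3 and MEK inhibited. The tagged lines are 10E and 11D. Their SPT16, the product of Supt16 and the larger protein of the histone chaperone FACT, carries a C-terminal V5 epitope and an auxin-inducible degron. These lines received ethanol (EtOH, the solvent) in 4 libraries or 500 nM indole-3-acetic acid (IAA), the auxin that directs a degron-tagged protein to degradation, in 3 libraries, for 24 hours. An untagged line without the degron received IAA in 3 libraries, and no EtOH library of it was analysed here. Line 10E has a single IAA library, so every test that uses it assumes that this library varies like the others, and each tagged line is 1 independently targeted clone. The question named in the series title is how FACT keeps pluripotency factors expressed.

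Total counts ran from 3100127 to 13510163 per library. The degron acts on the protein, so the transcript of Supt16 does not check the labels. In CPM (counts scaled to library size, here with TMM factors), its level was 359 to 420 with EtOH and 246 to 292 with IAA in tagged libraries, and 530 to 593 in the untagged line. The 10 stem cell markers examined were all detected, with a summed level of 7400 to 9290 CPM with EtOH and 2870 to 3080 with IAA in tagged libraries, and 8090 to 8430 CPM in the untagged line. The summed levels of 6 primitive endoderm markers were 3.38 to 9.04, 11.4 to 16.5 and 3.83 to 7.83 CPM in the same order, and those of 6 two-cell-like markers were 11.6 to 27.7, 30.5 to 68.8 and 8.52 to 14.4 CPM. Those of 6 trophectoderm markers overlapped, at 51.9 to 62.9, 51.7 to 68.4 and 44.5 to 53.8 CPM. This sum holds opposite moves, with tagged EtOH and IAA means of 36.5 and 29.4 CPM for Tfap2c and 13.2 and 23.7 for Krt8. For Krt18 they were 2.75 and 3.28 CPM, for Cdx2 2.13 and 2.67, and for Krt7 0.264 and 0.852. Among primitive endoderm markers, tagged EtOH and IAA means were 0.617 and 4.56 CPM for Dab2, 1.61 and 5.42 for Pdgfra. For Gata6 they were 0.272 and 0.681 CPM, and for Gata4 3.47 and 3.15. The summed levels of 7 fibroblast markers did not exceed 5.26 CPM, and 1 of these markers was at 0 in EtOH. Mitochondrial genes made up 1.67% to 2.26% of the counts of tagged cells given EtOH and 2.45% to 3.16% of those given IAA, beside 2.28% to 2.73% in the untagged line. The TMM factors, which set the scaling, were 0.874 to 0.967, 1.122 to 1.256 and 0.926 to 0.96 in the same order, so those of tagged IAA stood above all others. In bulk RNA, fewer cells of a type and less RNA per cell cannot be told apart, and the part that these shifts have in the values below was not tested. The transcript CT010467.1 took 0.129% to 4.27% of counts, with its highest shares in 11D EtOH replicate 1 (4.27%) and 10E EtOH replicate 2 (2.64%).

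Because Med13l and Med13 are paralogs whose transcripts differed most in their response, the DNA ahead of their starts is shown. Each stretch runs from 250 to 51 bases before the RefSeq start (build GRCm38.p6), 5′ to 3′ on the gene's strand. Capitals mark matches to the GC box GGGCGG on either strand, and adjoining matches run together. The Med13l stretch lies on the plus strand at chr5:118560469-118560668 and the Med13 stretch on the minus strand at chr11:86357647-86357846.
Med13l: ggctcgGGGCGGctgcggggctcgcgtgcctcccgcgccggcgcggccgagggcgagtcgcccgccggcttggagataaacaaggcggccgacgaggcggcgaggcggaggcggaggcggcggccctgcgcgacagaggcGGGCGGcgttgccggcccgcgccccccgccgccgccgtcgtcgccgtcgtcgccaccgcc
Med13: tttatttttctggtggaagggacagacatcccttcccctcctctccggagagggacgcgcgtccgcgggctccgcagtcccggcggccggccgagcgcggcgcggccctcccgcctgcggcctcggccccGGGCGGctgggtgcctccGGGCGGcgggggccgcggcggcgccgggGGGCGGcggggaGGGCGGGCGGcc
The stretches hold 2 and 5 GC boxes. In the RefSeq windows of 300 bases, 250 before to 50 after a start, 28 of the 33 members had an entry. Med13l had the highest GC content of these, 84.7%, with 61 CpG dinucleotides, and Med13 had 78.3% with 43. The median GC content was 57.8% over the members and 52.7% over all 32851 windows, and the median CpG number was 22 against 7. A GC box occurred in 18 of 28 member windows (64.3%) and in 35.7% of all windows. The ETS core CCGGAA occurred in 46.4% against 14.9%, the CCAAT box in 39.3% against 37.4%, the TATA box TATAAA in 10.7% against 13.6%, the E-box CACGTG in 14.3% against 7.15% and the octamer ATGCAAAT in 3.57% against 1.74%, each on either strand. Each member is represented by the entry listed first for it, and all members were expressed here. The set of all windows keeps every entry, whether or not its gene was expressed. The sets are therefore unlike in more than Mediator membership, and no trait of Mediator promoters is drawn from them. These are matches of letters and were not tied to binding or to the changes below.

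In tagged EtOH libraries every member was expressed. Per kilobase of merged exon, the levels ran from 0.787 CPM per kb for Med12l to 34.5 for Med19, a middle module subunit. After Med19 came Med13l (25.3 CPM per kb), Med1 (24.9), Med13 (21.9) and Med6 (21.1), and just above Med12l lay Med31 at 4.41. The kinase module therefore held both the rarest member and 2 of the most abundant. The spread between the 4 EtOH libraries was narrowest for Cdk19, with a coefficient of variation of 1.12%, and widest for Med25, with 34.2%.

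IAA changed the level of 15 Mediator transcripts in the tagged lines, 7 of them upward and 8 downward, at a false discovery rate (FDR) under 0.05 in edgeR's quasi-likelihood test. That is 45.5% of the members, while 57.4% of all 17904 genes tested passed (29.3% higher and 28.1% lower). The changes were mostly small. The median absolute log2 fold change was 0.30 over the members and 0.62 over all genes. Only Med13l changed by 1 log2 unit or more, which is 3.03% of the members against 30.9% of all genes. The median signed change was -0.07, beside 0.03 over all genes. Scaling by library totals alone, in place of edgeR's TMM factors, moved the median of all genes up by 0.33, and the members' split then became 17 higher and 2 lower. Nothing in the labels gives the replicates as separate cultures. The p-values therefore reflect only how these libraries differ among themselves, and that spread may be technical.

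**Figure D1:**
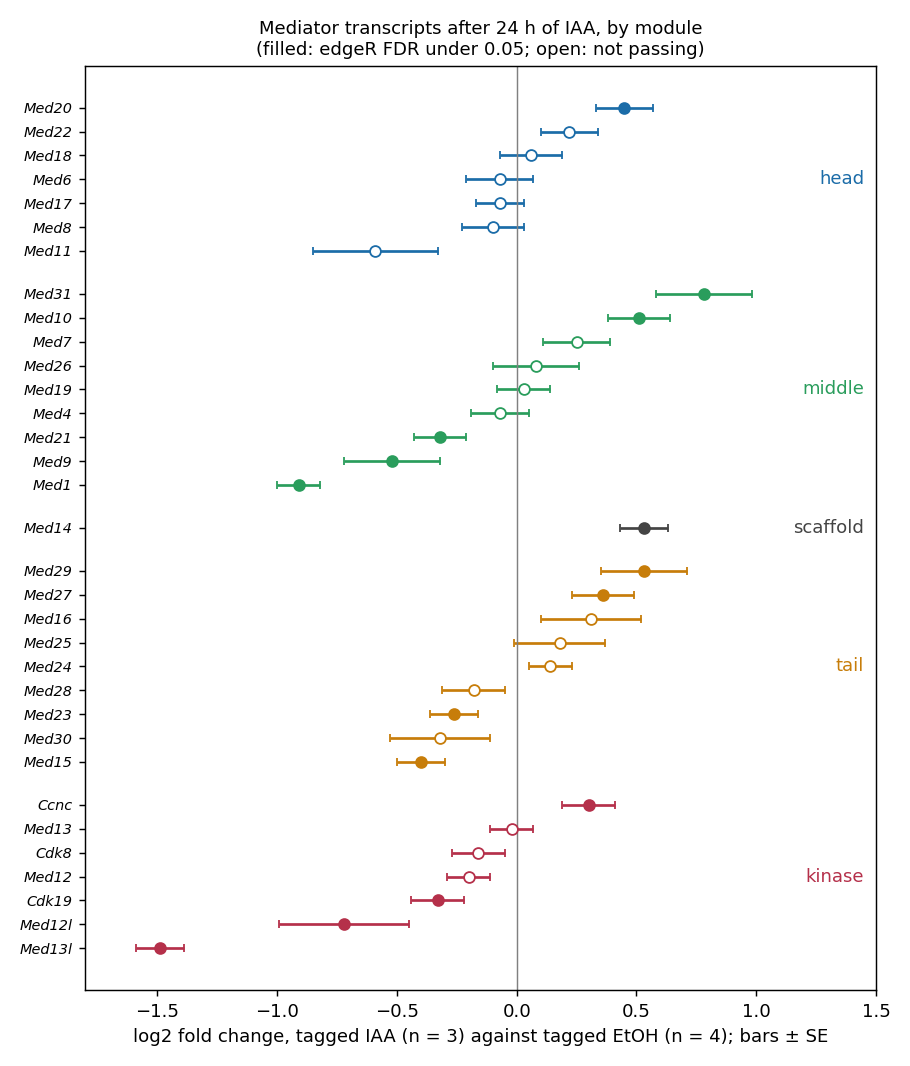
Log2 fold change of each Mediator transcript, tagged IAA (3 libraries) against tagged EtOH (4 libraries), with bars of 1 standard error on either side and genes grouped by module. Filled points passed edgeR's test at an FDR under 0.05, and Med13l at -1.49 and Med1 at -0.91 lie farthest from 0.

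The modules differed little in their medians. The head had a median of -0.07 (1 higher, 0 lower, 6 not passing), the middle 0.03 (2 higher, 3 lower, 4 not passing), the tail 0.14 (2 higher, 2 lower, 5 not passing) and the kinase module -0.20 (1 higher, 3 lower, 3 not passing). With library totals alone these medians were 0.27, 0.36, 0.47 and 0.13, so the signs of the head and kinase medians turned while the order of the 4 modules was kept. The widest range within a module was that of the kinase module, from -1.49 to 0.30, and the narrowest was that of the tail, from -0.40 to 0.53. With Med27, Med28, Med29 and Med30 placed in the head instead, the head median was -0.07 and the tail median 0.14. The calls of Med27 and Med29, both higher, then count to the head and not to the tail. No test compared the modules with each other.

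Med13l fell most. It encodes the large linker subunit, paralogous to Med13, that ties the kinase module to the rest of Mediator, and spans chr5:118560679-118765438 on the plus strand (GRCm38). Its level was 422 and 364 CPM in 10E EtOH and 366 and 406 CPM in 11D EtOH. After IAA it was 120 CPM in 10E and 147 and 143 CPM in 11D. In the untagged line with IAA it was 343, 372 and 363 CPM. All 3 tagged IAA libraries lay far below the other 7, which overlapped one another. The log2 fold change was -1.49 ± 0.10 (SE, edgeR FDR 7.98e-09).

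Its paralog Med13, at chr11:86267033-86357602 on the minus strand, did not pass the test. It stood at 229 and 229 CPM in 10E EtOH, 215 and 277 in 11D EtOH, 208 in 10E IAA and 229 and 261 in 11D IAA. The groups overlapped, and the fitted change was -0.02 ± 0.09 (edgeR FDR 0.838). The untagged line had 332, 268 and 287 CPM.

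Because both paralogs were counted in the same library, their share does not depend on the scaling between libraries. Med13l made up 64.9% and 61.5% of the pair's counts in 10E EtOH and 63.0% and 59.5% in 11D EtOH. It made up 36.7% in 10E IAA, with a 95% Wilson interval of 34.4% to 39.1%, and 39.1% and 35.5% in 11D IAA. The untagged libraries had 50.9%, 58.1% and 55.9%. The IAA mean was 37.1% ± 1.82 (SD, n = 3) and the EtOH mean 62.2% ± 2.30 (SD, n = 4), a difference of -25.1 percentage points, with no overlap. The exact two-sided permutation p was 0.0571, the smallest that 3 against 4 libraries allow, and 0.171 after adjustment over the 3 pairs. Against all 7 other libraries, which averaged 59.1% ± 4.72 (SD, n = 7), the difference was -22.0 points, with an exact permutation p of 0.0167 (the smallest possible; adjusted 0.0501). Neither adjusted value passed 0.05. All untagged shares lay below all tagged EtOH shares, so those 7 libraries were not alike, and they differ in line and agent. Neither permutation takes account of the line. Longer transcripts give more counts, so these are shares of counts and not of molecules, and the intervals cover counting error only.

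**Figure D2:**
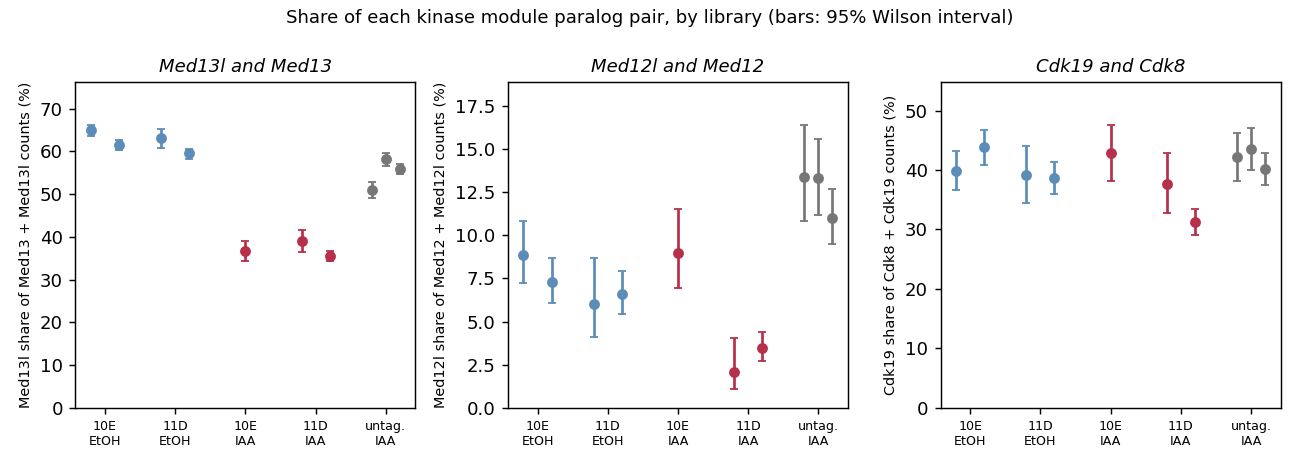
Share of each kinase module pair's counts taken by Med13l, Med12l or Cdk19, in percent, for each of the 10 libraries, with bars for the 95% Wilson interval. The Med13l share lies between 35.5% and 39.1% in the 3 tagged IAA libraries and between 50.9% and 64.9% in the others.

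Med12l, the less abundant paralog of Med12, had unlike values in the 2 lines. In 10E it was at 11.8 and 11.3 CPM with EtOH and 11 CPM with IAA. In 11D it was at 7.67 and 9.42 CPM with EtOH and 2.21 and 4.02 CPM with IAA, from 8 and 61 counts. So the 11D IAA libraries were the lowest of all, while the 10E IAA library lay among the EtOH libraries. The change over both lines was -0.72 ± 0.27 (edgeR FDR 0.0307), it was -1.33 ± 0.29 in 11D (FDR 0.00191), and the fitted value in 10E was 0.01 ± 0.31 (FDR 0.977). The untagged line, at 18.0, 19.6 and 15.7 CPM, lay above all 7 tagged libraries. The call over both lines was lost in 7 of 14 alternative settings, DESeq2 among them (adjusted p 0.0505). It was lost without 11D EtOH replicate 2 (-0.42, edgeR FDR 0.223), 11D IAA replicate 1 (-0.55) or 11D IAA replicate 2 (-0.56), and without 10E IAA replicate 1 the fold change was -1.33. The share of Med12l in its pair was 4.83% ± 3.65 (SD, n = 3) with IAA and 7.17% ± 1.23 (SD, n = 4) with EtOH, and these overlapped (exact permutation p 0.286, adjusted 0.4).

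Med12, which activates the kinase, stood at 122 and 144 CPM in 10E EtOH and 120 and 134 in 11D EtOH. It stood at 112 CPM in 10E IAA and 104 and 113 in 11D IAA. All IAA libraries were below all EtOH libraries, yet the change of -0.20 ± 0.09 did not pass (edgeR FDR 0.0769). The untagged line had 117, 128 and 127 CPM, all above the tagged IAA libraries.

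Cdk19, the alternative kinase, fell by a small amount. It was at 46.1 and 46.9 CPM in 10E EtOH, 46.3 and 45.7 in 11D EtOH, 37.9 in 10E IAA and 36.3 and 33.6 in 11D IAA. The groups did not overlap, and the change was -0.33 ± 0.11 (edgeR FDR 0.0216). With library totals alone it was 0.01, so its direction rests on the scaling, and the call was lost without 11D EtOH replicate 1, 11D EtOH replicate 2 or 11D IAA replicate 2 (-0.31, -0.30 and -0.23). The untagged line had 55.7, 54.8 and 50.5 CPM of Cdk19, above every tagged library. Cdk8 was at 69.4 and 60.2 CPM in 10E EtOH, 72.1 and 72.6 in 11D EtOH, 50.7 in 10E IAA and 60.1 and 74.0 in 11D IAA, with overlapping groups and a fitted change of -0.16 ± 0.11 (FDR 0.205). It was at 76.7, 71.2 and 75.3 CPM in the untagged line. The share of Cdk19 in the pair was 37.2% ± 5.81 (SD, n = 3) with IAA and 40.4% ± 2.35 (SD, n = 4) with EtOH, a difference within the spread (exact permutation p 0.4, adjusted 0.4).

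Ccnc encodes cyclin C, the partner of both kinases, and was the kinase module transcript that rose. It was at 41.5 and 45.9 CPM in 10E EtOH, 47.6 and 55.5 in 11D EtOH, 46.9 in 10E IAA and 62.8 and 71.5 in 11D IAA. The 10E IAA library lay within the EtOH range, and the change was 0.30 ± 0.11 (edgeR FDR 0.0249), a call lost in 7 of 14 alternatives. Leaving out 10E EtOH replicate 1, 11D EtOH replicate 1, 11D IAA replicate 1 or 11D IAA replicate 2 each ended it, with values of 0.27, 0.24, 0.31 and 0.28. The untagged line had 84.1, 57.3 and 54.5 CPM.

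Summed over its 7 members, the kinase module stood at 930 ± 54.1 CPM (SD, n = 4) with EtOH, 643 ± 56.5 (SD, n = 3) with IAA and 991 ± 33.8 (SD, n = 3) in the untagged line. Of the summed CPM per kb of all members it took 19.5% to 22.8% with EtOH, 17.2% to 18.1% with IAA in the tagged lines, and 22.3% to 25.4% in untagged cells. The tagged IAA range did not overlap the others. Much of this lay in Med13l, which averaged 390 CPM with EtOH and 137 CPM with IAA. The other 6 members summed to 540 ± 37.9 CPM (SD, n = 4) with EtOH, 506 ± 46.3 (SD, n = 3) with IAA and 631 ± 45.6 (SD, n = 3) in the untagged line, and the tagged groups overlapped. With Med13l left out of all sums, the module took 15.1% to 17.6% with EtOH and 15.3% to 16.2% with IAA in the tagged lines, again with overlap, and 17.8% to 21.1% in untagged cells. The share of the scaffold Med14 moved the other way without overlap, from 1.39% to 1.97% with EtOH to 2.36% to 2.94% with IAA, beside 1.73% to 2.03% in the untagged line. For the head, middle and tail modules the ranges of this share overlapped between tagged EtOH and tagged IAA.

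**Figure D3:**
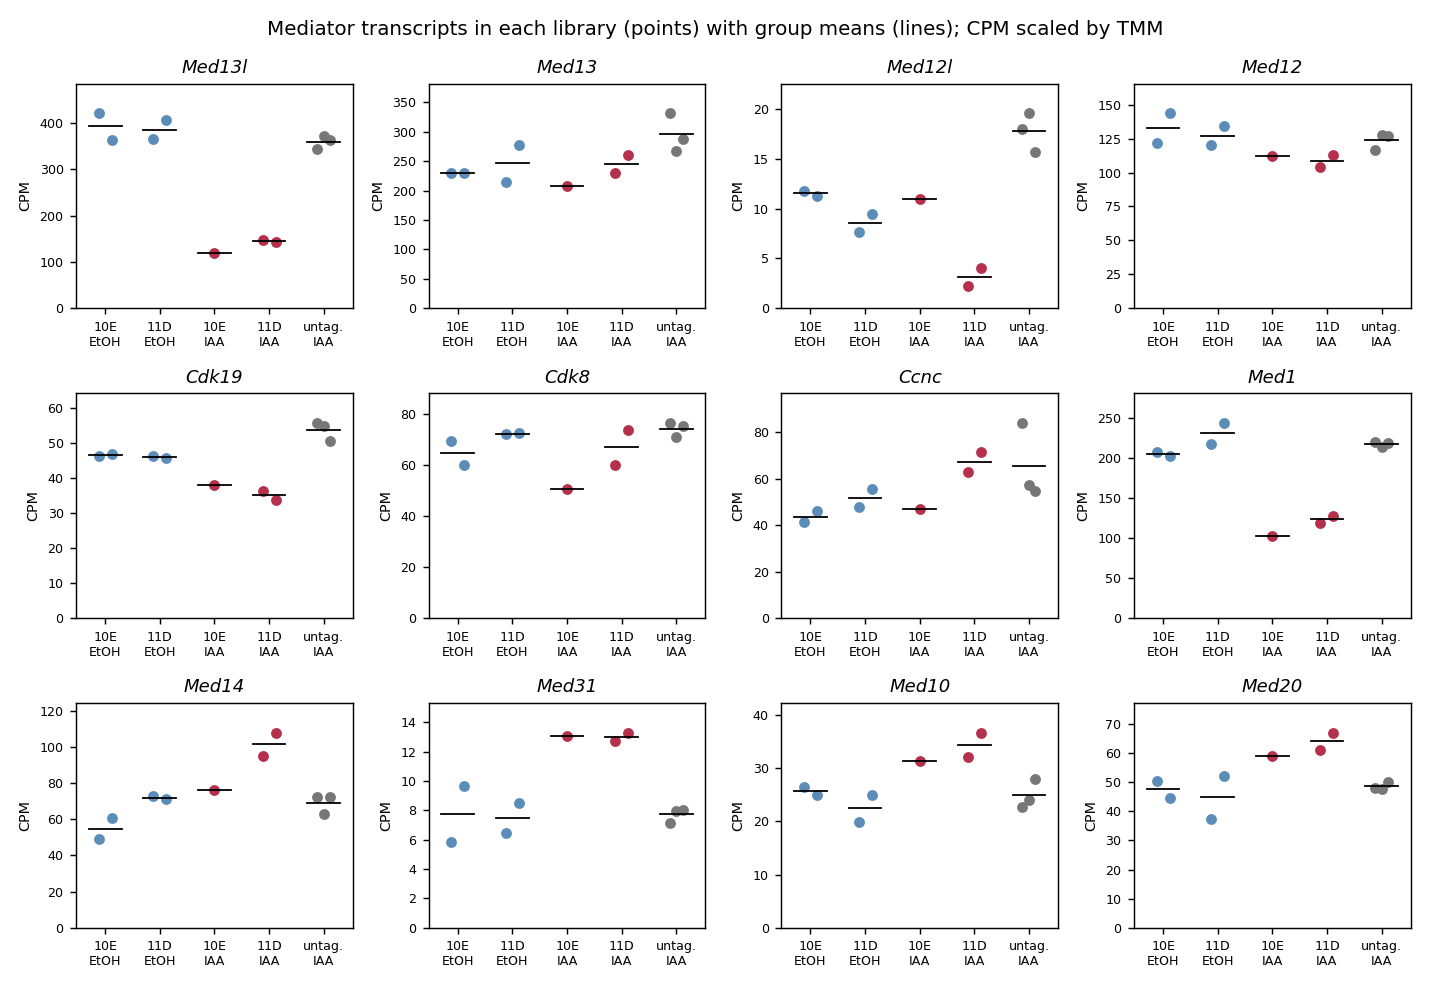
CPM scaled by TMM of 12 Mediator transcripts in each of the 10 libraries (points), with the mean of each line and treatment as a line; untag. is the untagged line. Med13l and Med1 are low in all 3 tagged IAA libraries, Med12l only in those of 11D, and Med14, Med31, Med10 and Med20 are higher in each tagged IAA library than in any EtOH library.

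In the middle module Med1 fell. Med1 is the subunit through which nuclear receptors and several other activators bind Mediator, and lies at chr11:98152154-98193293 on the minus strand. It was at 208 and 202 CPM in 10E EtOH, 218 and 244 in 11D EtOH, 102 in 10E IAA and 119 and 128 in 11D IAA. The untagged line, at 220, 214 and 219 CPM, lay within the EtOH range, and the 3 tagged IAA libraries lay below all others. The change was -0.91 ± 0.09 (edgeR FDR 3.18e-07).

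Med31, a small middle module subunit, rose. It was at 5.85 and 9.69 CPM in 10E EtOH, 6.44 and 8.50 in 11D EtOH, 13.1 in 10E IAA and 12.7 and 13.3 in 11D IAA. The groups did not overlap, and the change was 0.78 ± 0.20 (FDR 0.00352). The untagged line, at 7.14, 7.97 and 8.05 CPM, lay within the EtOH range. The gene shares 26.3% of its merged exon length with the antisense transcript 4930563E22Rik, which had 35 counts in EtOH and 73 in IAA libraries, beside 255 and 311 for Med31, and itself rose by 1.40 log2 units (edgeR FDR 0.00667). No source used here gives the strand setting of the counting, so reads of the partners cannot be told apart.

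Med10, another middle module subunit, rose from 26.4 and 24.9 CPM (10E) and 19.9 and 25 CPM (11D) with EtOH to 31.3 CPM (10E) and 32.1 and 36.7 CPM (11D) with IAA. The groups did not overlap, and the change was 0.51 ± 0.13 (edgeR FDR 0.00364). Levels in untagged cells were 22.8, 24.1 and 28.0 CPM. An antisense gene, Gm26819, covers 92.8% of its merged exons. With the strand setting unknown, reads of Gm26819 cannot be told apart from those of Med10, and no count of Gm26819 is given here. Med9 was at 17.5 and 28.0 CPM in 10E EtOH, 31.3 and 19.7 in 11D EtOH, 14.4 in 10E IAA and 18.0 and 17.5 in 11D IAA. Untagged libraries had 16.4, 20.8 and 21.0 CPM of Med9. Med9 fell by 0.52 on the log2 scale, with an SE of 0.20 (FDR 0.0339), although the groups overlapped, and lost the call in 9 of 14 alternatives. Among single libraries, 10E EtOH replicate 2 (-0.37 without it), 11D EtOH replicate 1 (-0.35), 10E IAA replicate 1 (-0.47) and 11D IAA replicate 2 (-0.47) each ended it. Its 2 highest values were in the EtOH libraries richest in CT010467.1. Without those 2 libraries the Med9 change was -0.18 (FDR 0.383), and the part of that transcript was not tested.

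Med21, which pairs with Med7 in the hinge of the middle module, was at 37.1 and 38.4 CPM in 10E EtOH, 41.1 and 42.7 in 11D EtOH, 27.9 in 10E IAA and 31.8 and 35.5 in 11D IAA. It fell without overlap, by -0.32 ± 0.11 (edgeR FDR 0.0229), and was at 0.01 with library totals alone. Untagged cells had 48.1, 41.0 and 41.4 CPM. Its fitted value stayed between -0.35 and -0.29 with any 1 library left out, but the call held only without 10E EtOH replicate 1 or 11D EtOH replicate 1. Tm7sf3, whose exons overlap those of Med21 on the other strand, fell too (-0.68, edgeR FDR 1.91e-05). Its hinge partner Med7 had a fitted change of 0.25 ± 0.14 (FDR 0.14). The other middle subunits did not pass, with values of 0.08 for Med26, 0.03 for Med19 and -0.07 for Med4.

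Med14, the scaffold, rose. It lies at chrX:12675369-12762073 on the minus strand, and its exons overlap no other gene's. It was at 49.2 and 60.5 CPM in 10E EtOH, 72.7 and 71.1 in 11D EtOH, 76.1 in 10E IAA and 95.2 and 108 in 11D IAA. With EtOH, 11D lay above 10E, and all IAA libraries lay above all EtOH libraries. The change was 0.53 ± 0.10 (edgeR FDR 0.000342). The untagged line had 72.3, 62.8 and 72.5 CPM.

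In the head module only Med20 passed. It was at 50.5 and 44.6 CPM in 10E EtOH, 37.4 and 52.1 in 11D EtOH, 59.0 in 10E IAA and 60.9 and 67.0 in 11D IAA, with no overlap and a change of 0.45 ± 0.12 (edgeR FDR 0.00392). In the untagged line it was at 48.1, 47.6 and 49.9 CPM, within the EtOH range. Its exons share 513 bases on the same strand with Gm20517, which also rose (1.02, FDR 0.00346). The largest fitted value of the head was that of the low transcript Med11, -0.59 ± 0.26 (FDR 0.0596), with overlapping groups. Med17, the central head subunit, was at -0.07 ± 0.10, and Med22 (0.22), Med18 (0.06), Med6 (-0.07) and Med8 (-0.10) did not pass either.

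In the tail 2 members rose and 2 fell. Med15, a target of activators including those of lipid metabolism, was at 122 and 129 CPM in 10E EtOH, 118 and 97.6 in 11D EtOH, 82.1 in 10E IAA and 86.9 and 85.8 in 11D IAA. All IAA libraries were lower, and the change was -0.40 ± 0.10 (edgeR FDR 0.00397), beside -0.06 with library totals alone and -0.31 (FDR 0.074) without 10E IAA replicate 1. In untagged cells it was at 90.3, 112 and 108 CPM. Med23, through which ELK1 and E1A act, was at 95.4 and 95.6 CPM in 10E EtOH, 104 and 114 in 11D EtOH, 65.5 in 10E IAA and 96.1 and 101 in 11D IAA. Untagged libraries had 96.1, 95.3 and 109 CPM of Med23. Only the 10E IAA library lay clearly below EtOH, and the change was -0.26 ± 0.10 (FDR 0.0328). Without that library it was -0.13 (FDR 0.322), and the call was also lost without 10E EtOH replicate 2 (-0.22), 11D EtOH replicate 2 (-0.26) or 11D IAA replicate 2 (-0.27).

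Med29, which sits between the tail and the head, was at 12.0 and 15.2 CPM in 10E EtOH, 16.6 and 11 in 11D EtOH, 19.2 in 10E IAA and 20.8 and 17.0 in 11D IAA. The groups did not overlap, by a narrow margin, and the change was 0.53 ± 0.18 (edgeR FDR 0.0213). The untagged line, at 5.53, 10.1 and 10.8 CPM, lay below all tagged libraries. The call was lost without 10E EtOH replicate 1 (0.45), 10E IAA replicate 1 (0.50), 11D EtOH replicate 2 (0.39) or 11D IAA replicate 1 (0.45). Med27 was at 31.2 and 28.5 CPM in 10E EtOH, 23.0 and 24.2 in 11D EtOH, 32.7 in 10E IAA and 30.5 and 34.4 in 11D IAA. Untagged libraries had 24.6, 26.1 and 24.5 CPM. Med27 overlapped between groups but not within a line, and rose by 0.36 ± 0.13 (FDR 0.0219), a call lost without 11D EtOH replicate 1 (0.33), 11D EtOH replicate 2 (0.35) or 11D IAA replicate 2 (0.33). The values of Med16 (0.31), Med25 (0.18), Med24 (0.14), Med28 (-0.18) and Med30 (-0.32) did not pass.

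Groups did not overlap for 11 of the 33 members (33.3%), with 6 lower and 5 higher in all IAA libraries. Among all 17904 genes tested, 51.7% did not overlap, 25.9% lower and 25.8% higher. The members' share lies below this background, and the difference was not tested. Of the 15 calls, 6 passed in all 14 alternatives tried. These were the falls of Med13l and Med1 and the rises of Med14, Med31, Med10 and Med20, and the other 9 lost the call in at least 1. The plot of both scalings shows the upward shift of every member with library totals.

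**Figure D4:**
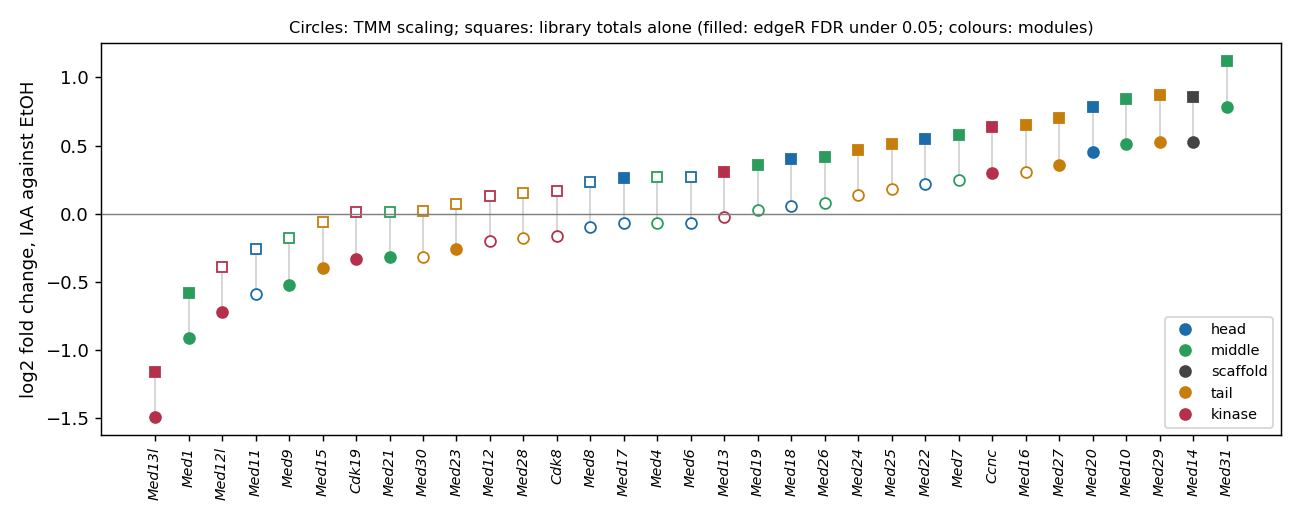
Log2 fold change of IAA against EtOH for all 33 members with TMM scaling (circles) and with library totals alone (squares), ordered by the TMM value and coloured by module. Filled symbols passed edgeR's test at an FDR under 0.05; 7 members were higher and 8 lower with TMM, and 17 higher and 2 lower with library totals.

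Within line 10E, 5 members passed (15.2%, beside 35.4% of all genes, 17.1% higher and 18.3% lower). Med14 was higher, and Med1, Med15, Med23 and Med13l were lower. Within 11D, 12 passed (36.4%, beside 46.2% of all genes, 23.1% higher and 23.1% lower). Med20, Med22, Med10, Med31, Med14, Med27 and Ccnc were higher, and Med1, Med30, Med12l, Med13l and Cdk19 were lower. Med13l was at -1.63 ± 0.15 in 10E and -1.41 ± 0.12 in 11D, Med1 at -0.93 ± 0.14 and -0.90 ± 0.11, and Med14 at 0.55 ± 0.16 and 0.51 ± 0.13, so these 3 passed in both lines with like sizes. Without 11D IAA replicate 2, 0 members were higher in 11D, and without 10E EtOH replicate 1, 0 were higher in 10E.

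The difference between the lines' responses was tested by the line by treatment interaction. It passed for 0 of the 33 members by edgeR and for 0 by DESeq2, beside 0% of all genes by edgeR. Near what chance alone gives in 33 tests, 2 members had an unadjusted p under 0.05. These were Med12l, with a difference of 1.35 ± 0.42 between the lines (edgeR p 0.00684, FDR 0.938), and Med30, with 0.93 ± 0.36 (p 0.0208, FDR 0.938). Med30 was at 9.57 and 11.9 CPM in 10E EtOH, 12.1 in 10E IAA, 16.3 and 15.1 in 11D EtOH and 10.2 and 9.30 in 11D IAA, and its highest values were those of 11D EtOH. Untagged cells had 13.6, 14.3 and 13.8 CPM. Across the 33 members the lines' fold changes had a Pearson r of 0.74 and a Spearman rho of 0.73, with the same sign for 24. Without Med13l and Med1, r was 0.58 (n = 31). This is a description across genes, which are not replicates and share libraries.

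**Figure D5:**
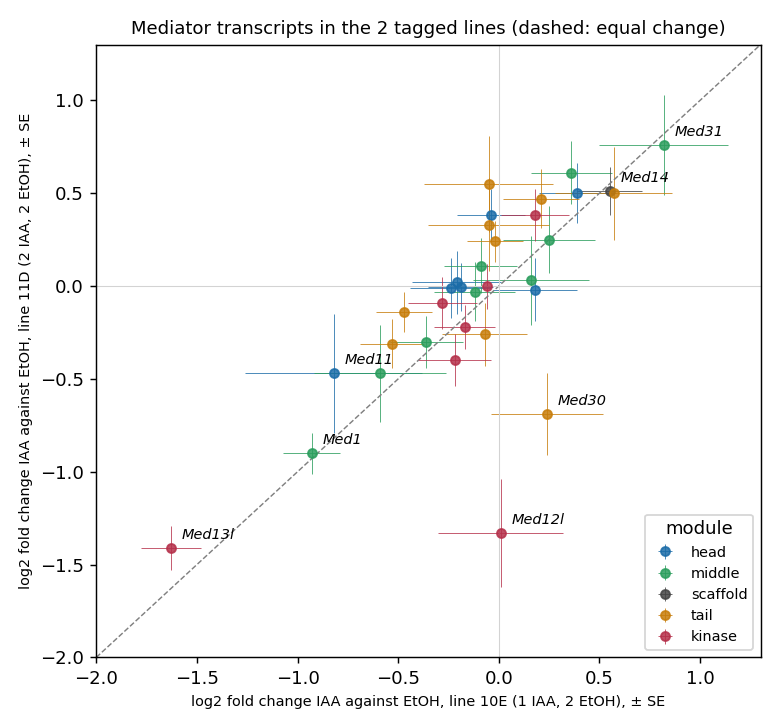
Log2 fold change of IAA against EtOH in line 10E (1 IAA and 2 EtOH libraries) on the horizontal axis and in 11D (2 and 2) on the vertical axis for the 33 members, with bars of 1 standard error on either side and a dashed line of equal change. Med13l and Med1 lie near the dashed line, and Med12l (0.01 and -1.33) and Med30 (0.24 and -0.69) lie off it.

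Against the untagged line, with IAA in both, 17 members passed (51.5%, beside 55.7% of the 17439 genes tested, 27.9% higher and 27.8% lower). Of these, 9 were higher and 8 lower in the tagged lines. Here 5 of the 7 kinase module members were lower and 0 higher. Beside a kinase module median of -0.22 for tagged EtOH against untagged IAA, the median here was -0.34. Med13l was at -1.40 ± 0.10 (edgeR FDR 2.89e-08), Med12l at -1.47 ± 0.21 (FDR 2.62e-05), Cdk19 at -0.52 ± 0.12, Med13 at -0.34 ± 0.11 and Cdk8 at -0.30 ± 0.11. Med1 (-0.91 ± 0.09), Med21 (-0.45) and Med23 (-0.28) were also lower. Those higher were Med29 (1.09 ± 0.24), Med31 (0.80), Med22 (0.60), Med25 (0.58), Med10 (0.43), Med27 (0.43), Med14 (0.39), Med20 (0.38) and Med24 (0.28). In the same order, tagged EtOH against untagged IAA gave 0.55, -0.00031, 0.41, 0.44, -0.06, 0.08, -0.15, -0.07 and 0.16. For Med29, Med22 and Med25 a good part of the difference was thus fitted with EtOH too, where only Med22 passed. The comparison of tagged IAA against untagged IAA shares its tagged IAA libraries with that of IAA against EtOH. With library totals alone, 13 members were higher and 3 lower, and in the kinase module 2 were lower, Med13l and Med12l, with a module median of -0.05. With the replicate number as a block, 6 members were higher and 6 lower, and Cdk8 was not among them. Of 13 alternatives, Cdk8 lost the call in 6 and Med23, Med24 and Med25 in 5 each. Without 11D IAA replicate 1, untagged replicate 2 or untagged replicate 3, 4 kinase module members were lower.

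Tagged EtOH and untagged IAA libraries differ in the line and in the agent, which cannot be told apart. Only Med22 (0.41 ± 0.11, edgeR FDR 0.0448) was higher in tagged EtOH and only Med12l (-0.82 ± 0.17, FDR 0.0223) lower, 6.06% of the members beside 3.57% of all genes (1.27% higher and 2.29% lower). Med12l thus stood at 17.8 ± 1.95 CPM (SD, n = 3) in the untagged line and 10.1 ± 1.89 CPM (SD, n = 4) in tagged EtOH. The kinase module median was -0.22. Med13 was at -0.32 ± 0.10 (edgeR FDR 0.0774) and Ccnc at -0.45 ± 0.14 (FDR 0.0814), neither passing. For IAA against EtOH in the tagged lines, Med13 was at -0.02. Its fitted value against untagged IAA was of like size for tagged EtOH (-0.32) and tagged IAA (-0.34), though only the latter passed. Tagged EtOH and untagged libraries overlapped, with 277 CPM in 11D EtOH replicate 2 and 268 CPM in untagged replicate 2. The Med22 call was lost in 10 of 14 alternatives, among them library totals alone, the replicate block and the omission of 11D EtOH replicate 2, 11D IAA replicate 1, 11D IAA replicate 2 or untagged replicate 3. Both calls were lost without 10E EtOH replicate 1, 11D EtOH replicate 1, untagged replicate 1 or untagged replicate 2, with 0 members passing. Between 10E and 11D in EtOH, 0 members passed by edgeR and 0 by DESeq2, beside 3.23% of all genes passing by edgeR (1.28% higher and 1.95% lower). At an unadjusted edgeR p under 0.05 there were 4 members. The share of all genes at that unadjusted p was not taken, so these 4 have no background beside them.

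Among other genes of the initiation machinery, 16 of 32 general transcription factor genes passed, 7 higher and 9 lower, with a median of -0.10. Scaled by library totals alone, 13 were higher and 5 lower, and the median was 0.23. Taf8 (-1.03 ± 0.11) and Taf5 (-0.96 ± 0.13), subunits of TFIID, and Gtf2h4 (-1.08 ± 0.15), a subunit of TFIIH, fell. Taf9b (2.09 ± 0.28), Gtf2f1 (0.81 ± 0.11) and the TFIIH helicase gene Ercc2 (0.78 ± 0.12) rose. Of 12 RNA polymerase II subunit genes, 2 rose, Polr2l (1.33 ± 0.16) and Polr2b (0.40 ± 0.10), and 3 fell, Polr2i (-0.61 ± 0.15), Polr2e (-0.42 ± 0.10) and Polr2f (-0.43 ± 0.12), with a median of 0.10. The share that passed was 41.7%, also below that of all genes, and neither difference was tested. Scaled by library totals alone, 8 were higher and 0 lower (median 0.43), and without 10E IAA replicate 1, 3 were higher and 0 lower. The calls of the falls were thus lost in both settings, while DESeq2 gave 2 higher and 3 lower. Leaving out that library also leaves fewer IAA libraries, so a lost call need not mean a lost fall. Whether the falls rest on the scaling or on that library was not tested.

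Genes for coactivators that work with Mediator at enhancers moved mainly one way. Of 14, 13 fell and 1 rose, with a median of -0.67. So 100% passed, beside 57.4% of all genes tested (28.1% lower and 29.3% higher). With library totals alone 9 fell and 1 rose, and the median was -0.34. Stag1 (-1.58 ± 0.10) and Rad21 (-1.33 ± 0.11), cohesin subunits, and Ncoa3 (-1.12 ± 0.09), a nuclear receptor coactivator, fell, and Mau2 (0.70 ± 0.08), part of the cohesin loader, rose. Mediator's own median of -0.07 lay nearer to those of the general factors and the polymerase. The difference between the lists was not tested.

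The span of the gene was set beside the change by rank, and the relation was not tested. The Spearman rho between genomic span and log2 fold change was -0.29 over the 33 members and -0.09 over 13583 protein-coding genes tested. The median spans were 18.2 and 24.1 kb. Med12l (313 kb) and Med13l (205 kb) had long spans and fell, and Med27 (178 kb) had the next longest and rose (0.36). After it came Cdk19 (144 kb), which fell (-0.33). Med14 (86.7 kb), Med13 (90.6 kb) and Med15 (81.7 kb), of similar span to each other, were at 0.53, -0.02 and -0.40.

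In the authors' deposited table of IAA against EtOH, 8 members (24.2%) had an adjusted p under 0.05, beside 36.6% of the 21210 genes with an adjusted p there (18.8% higher and 17.8% lower). Med20, Med10, Med31, Med14 and Med27 were higher there, and Med1, Med15 and Med13l were lower. The authors' deposited table gives Med13l a log2 fold change of -1.443.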

How the data were processed

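Gene expression was analysed in 10 RNA-seq libraries. The authors deposited whole-number read counts per gene symbol, not normalized. STAR, deepTools and mm10 stand in the submitters' processing notes. No tool version, read counter, annotation or strand setting is given in the sources used here. The authors' deposited comparison table holds a base mean (a signal averaged over libraries), a log2 fold change with its standard error, a Wald statistic (a score), and a p-value and adjusted p-value. Per the file headers these are DESeq2 columns. Refitting those counts with line, replicate number and treatment matched its log2 fold changes to a median absolute gap of 9.42e-07.

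The count table has 10 columns, the labels 11 samples and the design text 12 libraries. Column codes are 10E, 11D and TIR1. The clone numbers of 10E and 11D are unknown, and TIR1 was taken as the untagged line because only it has IAA alone with a replicate 3. The planned 8 tagged libraries were therefore 7.

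The tests used edgeR 4.0.16 (quasi-likelihood, TMM, filterByExpr on line and treatment, Benjamini-Hochberg FDR under 0.05) in R 4.3.3, on the 7 tagged libraries with line as a term, with 1 coefficient per line and treatment for effects within lines, and on all 10 libraries for the untagged line. CPM are TMM-scaled. SE is the size of the log2 fold change over the root of F. The script was tested on simulated data. Paralog shares were compared by exact two-sided permutation (scipy 1.17.1). Exon lengths and overlaps came from the GENCODE vM21 annotation of GRCm38, in which 18 members overlap another gene's exons. Chi-square per degree of freedom between replicates was 3.05 to 28.9, so none was a duplicate.

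The members and gene lists were chosen with earlier results of these data known. All members are named. Values in every library are given for the kinase module, Med14, Med1 and up to 3 called members per direction in each other module, and from other lists up to 3 called genes per direction with the smallest FDR. Med30 was added after its values were seen. Alternatives were DESeq2 1.42.0, library totals, no count filter, a replicate block, no line term, all 10 libraries, leaving out the 2 EtOH libraries richest in CT010467.1, and leaving out each library. The head and tail medians were also taken with Med27, Med28, Med29 and Med30 in the head.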

Additional observations from a re-analysis of the deposited data

Results flagged for a closer look

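Of 36 groups of tagged EtOH values examined (33 member levels and 3 paralog shares), 1 held a library standing apart. Med4, a middle module subunit, was at 45.3 CPM in 10E EtOH replicate 2 and between 36.5 and 37.7 CPM in the other EtOH libraries. The gap to the nearest library, divided by the range, was 0.864, above Dixon's 95% critical value for 4 values. Chance flags about 1 in 20 groups. The 3 untagged libraries had 45.6, 43.7 and 40.9 CPM.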

How the results depend on the processing

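With library totals alone, the IAA against EtOH counts were 17 higher and 2 lower, 8 and 2 in 10E and 13 and 3 in 11D, against untagged IAA 3 were lower, and tagged EtOH against untagged IAA gave 0 higher and 2 lower. The module medians were 0.27 (head), 0.36 (middle), 0.47 (tail) and 0.13 (kinase). Signs turned for 12 members, Med6 (0.27), Med8 (0.23), Med17 (0.26), Med4 (0.27), Med21 (0.01), Med23 (0.07), Med28 (0.15), Med30 (0.02), Med12 (0.13), Med13 (0.31), Cdk8 (0.17) and Cdk19 (0.01), and for Med23 against untagged IAA (0.02). With DESeq2, 3 members were lower in IAA against EtOH, 2 in 10E, and 3 higher and 3 lower in 11D; 3 were lower in tagged EtOH against untagged IAA, and Med13 was at 0.01. Without a line term 4 were lower and Med13 was at 0.00032. With no count filter, 0 were higher in 10E, 5 higher against untagged IAA, 2 higher and 2 lower in tagged EtOH against untagged IAA and 1 higher in 10E against 11D EtOH, and Med19 was at -0.0039. With the 2 EtOH libraries highest in CT010467.1 left out, Med6 was at 0.03 and Med4 at 0.0040. The cause of these shifts was not tested.

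Replicate numbers are shared between groups but were not taken to pair libraries, because the correlation of deviations did not exceed 0.1 in every pair: r was -0.17 for 10E and 11D EtOH, -0.111 for 10E EtOH and 11D IAA, 0.181 for 11D EtOH and 11D IAA, and -0.123 to 0.063 with the untagged line. With the replicate number as a block, 2 members were higher in 10E and 0 higher in tagged EtOH against untagged IAA, Med13 was at 0.0048, and IAA against EtOH gave 7 higher and 6 lower.

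Leaving out each library in turn gave 5 to 8 higher and 3 to 10 lower in IAA against EtOH (3 lower without 11D IAA replicate 2, 4 without 11D EtOH replicate 2, 5 without 10E EtOH replicate 2 or 10E IAA replicate 1), 0 to 2 and 2 to 4 in 10E, 0 to 7 and 3 to 5 in 11D, 7 to 11 and 6 to 10 against untagged IAA, 0 to 1 and 0 to 2 in tagged EtOH against untagged IAA, and 0 to 1 higher in 10E against 11D EtOH. Module medians ran from -0.10 to 0.02 (head), -0.07 to 0.12 (middle), -0.07 to 0.25 (tail) and -0.26 to -0.17 (kinase). Signs turned for Med6 (-0.13 to 0.03), Med17 (-0.14 to 0.00078), Med18 (-0.02 to 0.16), Med4 (-0.13 to 0.01), Med19 (-0.05 to 0.12), Med26 (-0.07 to 0.27), Med25 (-0.07 to 0.39) and Med13 (-0.11 to 0.07). Share differences ran from -26.1 to -24.2 points for Med13l against EtOH and -23.4 to -21.1 against all others, -4.41 to -0.966 and -6.71 to -3.26 for Med12l, and -5.94 to -0.14 and -6.59 to -0.794 for Cdk19. Comparisons that need the 10E IAA library could not be fitted without it. Depth was low for some members, with 8 counts of Med12l in 11D IAA replicate 1 and 14 of Med11 in 11D EtOH replicate 1.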

Other observations

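Med26, Med25 and Med16 are set beside the share of CT010467.1, and they were chosen after their values were seen. Among EtOH libraries the coefficients of variation were 34.2% for Med25, 27.3% for Med16 and 22.3% for Med26, beside 29.7% for Med11, 27.1% for Med9, 23.4% for Med31 and 23.1% for Med30. Med26, the subunit that recruits elongation factors, was at 41.9 and 43.9 CPM in 10E EtOH replicate 2 and 11D EtOH replicate 1, the libraries with 2.64% and 4.27% of counts in CT010467.1, and at 32.3 and 26.8 CPM in the other 2. Med25, a tail subunit bound by viral and ETS-family activators, was at 202 and 154 CPM in those libraries and at 153 and 80.0 CPM in the others. Among tagged IAA libraries of 11D, replicate 1, with 1.58% of counts in CT010467.1, had 41.0 CPM of Med26 and 168 CPM of Med25, and replicate 2, with 0.223%, had 29.8 and 121 CPM. The 10E IAA library, with 0.486%, had 39.4 CPM of Med26 and 162 CPM of Med25, near the values of the 11D library richer in that transcript. Med11 did not go with it, at 8.69 and 4.30 CPM in the 2 EtOH libraries richest in the transcript and 6.78 and 8.87 CPM in the others. With the 2 EtOH libraries highest in CT010467.1 left out, the IAA against EtOH change was 0.55 for Med25 (edgeR FDR 0.0148) and 0.64 for Med16 (FDR 0.0146), and both then passed. Those 2 libraries held the 2 highest EtOH values of both genes, for Med16 31.7 and 31.0 CPM beside 24.6 and 16.5 CPM. Leaving them out was therefore bound to raise both changes, and no conclusion is drawn from it. The part of that transcript in these values was not tested.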
